A study of Mus musculus with 16 samples.

Results

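Tamoxifen was given to healthy mice and to mice with a myotubular myopathy, and the changes in muscle RNA that the drug produced in both were measured here. The comparison used 14 of the 16 libraries of the series, 8 from treated and 6 from untreated mice, and tested the treatment term of a model in which genotype and treatment add up. All libraries came from quadriceps muscle of C57BL/6 mice at postnatal day 36, and each mouse gave 1 library. The 4 groups were wild-type mice without the drug (WT, 3 libraries), wild-type mice with tamoxifen (WT + TAM, 4 libraries), *Mtm1* -/- mice without the drug (*Mtm1* KO, 3 libraries) and *Mtm1* -/- mice with tamoxifen (*Mtm1* KO + TAM, 4 libraries). The mutant allele lacks exon 4 of *Mtm1*, the X-linked gene of the lipid phosphatase myotubularin. Treated mice ate chow with tamoxifen citrate, at a dose of 40 mg/kg a day, from day 21, and the other mice, for which the labels name no treatment, ate standard chow per the study's text. The tamoxifen chow was premixed with sucrose, so that an effect of the drug and one of the sucrose cannot be told apart. Per the study's text, mice of both genotypes on this dose weighed less than placebo mice, and earlier work had linked high doses to lower food intake. An effect of lower weight or food intake cannot be told apart here either.

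Tamoxifen is a selective estrogen receptor modulator. It binds the estrogen receptors alpha and beta, which are transcription factors encoded by *Esr1* and *Esr2*, and acts as an antagonist or as a partial agonist depending on the tissue and on the coregulators present. Genes whose transcription rises with an active estrogen receptor include the progesterone receptor *Pgr*, *Greb1* and the oxytocin receptor *Oxtr*, and muscle fibers, endothelial cells, fibroblasts and satellite cells of skeletal muscle can express the receptors.

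The 14 libraries held 25702605 to 29847222 counts each, and a difference in total counts between treated and untreated libraries was not detected (p = 0.629, exact permutation test within genotypes, two-sided). *Mtm1* had 282 to 459 counts in the 7 wild-type libraries and 53 to 97 counts in the 7 *Mtm1* KO libraries, and it was not called with tamoxifen (log2 fold change 0.12 ± 0.13 SE, adjusted p = 0.747). Each p-value below measures the spread between these mice. The library labelled WT replicate 1 held 74 *Mtm1* counts, a level of the *Mtm1* KO range, and correlated less with its group than the others did, as did *Mtm1* KO replicate 12 (mean Pearson r with the group 0.943 and 0.955, against 0.971 to 0.98 for the 14). These libraries are the ones left out here, and adding them gave 255 called genes, of which 188 were also among the 267 described next. With all 16 libraries the calls of *Abcb1a*, *Ankrd1*, *Col15a1*, *Cpt1a*, *Iigp1*, *Meg3*, *Nfe2l2* and *mt-Nd3*, given below, were lost (adjusted p = 0.129, 0.252, 0.0753, 0.508, 0.0544, 0.214, 0.0634 and 0.111). Myofiber transcripts dominated all libraries, with a summed level of 14 markers of 120500 to 295100 CPM (read counts scaled by the library's total after TMM adjustment).

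Of 15556 genes tested, 267 (1.72%) changed with tamoxifen in the additive model at an adjusted p of at most 0.05, 108 higher (0.694%) and 159 lower (1.02%). Of these, 96 changed by at least 1 on the log2 scale, 44 higher and 52 lower, and at an adjusted p of at most 0.01 there were 74 genes (0.476%), 38 higher and 36 lower. The count depended on single libraries. It ran from 121 without WT replicate 4 to 311 without *Mtm1* KO + TAM replicate 16, and it also fell by more than 1.5 times without WT replicate 2 (141 genes), without WT + TAM replicate 5 (148 genes) and without *Mtm1* KO replicate 10 (176 genes). Of the 267 genes, 100 were called without any single library, and of the 74 genes 73 were.

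**Figure D1:**
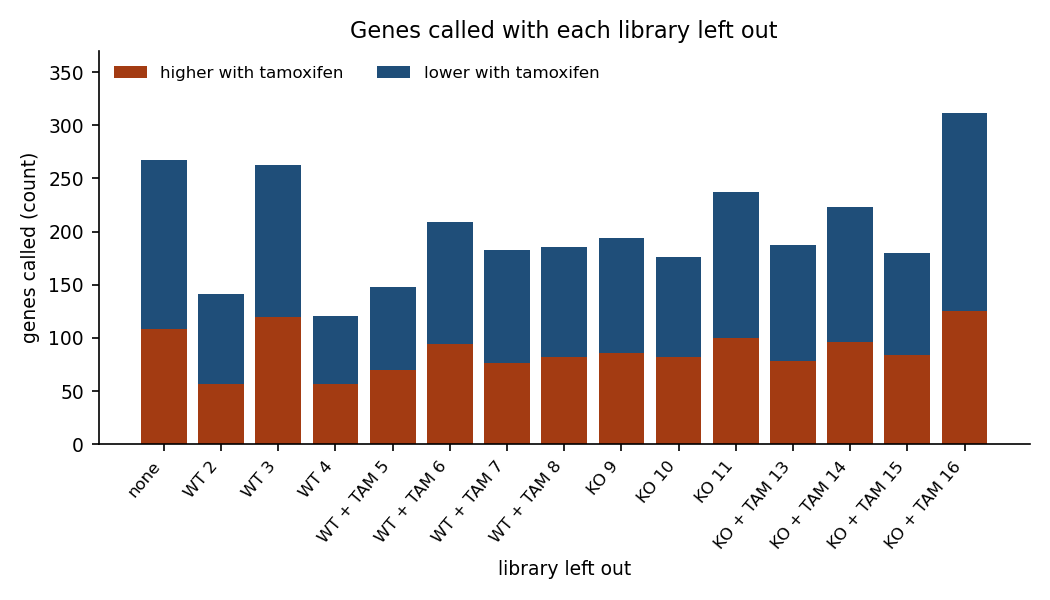
Number of genes called in the additive model (adjusted p of at most 0.05) with all 14 libraries and with each library left out in turn, split into genes higher and genes lower with tamoxifen. The lowest bar, 121 genes, is that without WT replicate 4, and the highest, 311 genes, that without *Mtm1* KO + TAM replicate 16.

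The wild-type and the *Mtm1* KO comparisons share no library, so their effects can be set side by side. Of the 267 genes, 253 could be tested within each genotype alone, and all 253 had the same sign in both. A common sign, a low p in each genotype and separate libraries are in part what the additive model selects on these same libraries, so that the counts here describe the called genes and test nothing. Over all 14280 genes tested in both genotypes 60.7% had the same sign. Of the called genes 211 had an unadjusted p of at most 0.05 in each genotype alone with the same sign, which 329 of the 14280 genes (2.3%) had. In 145 of the 267 genes the treated and untreated libraries did not overlap in either genotype, which held for 238 of all 15556 genes (1.53%). The median size of the effect among the called genes was 0.86 on the log2 scale in wild type and 0.68 in *Mtm1* KO.

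Genotypes differed in how many genes passed on their own. In wild type 80 of 14544 genes (0.55%) were called, 40 higher and 40 lower. In *Mtm1* KO 0 of 15062 genes were called by edgeR (0%), with a lowest adjusted p of 0.06 and 1137 genes (7.55%) at an unadjusted p of at most 0.05, while DESeq2 called 160. This does not show that the effects differed. The difference between genotypes was tested as an interaction, which called 0 of 15556 genes with edgeR (0%), with a lowest adjusted p of 0.27, 665 genes (4.27%) at an unadjusted p of at most 0.05 and 22 genes called by DESeq2. The genes called in wild type mostly moved the same way in *Mtm1* KO, where 72 of the 75 that could be tested had the same sign and 38 also an unadjusted p of at most 0.05. The 30 genes with the lowest p in each genotype had 5 in common, which were *Pgr*, *Flrt1*, *Aqp5*, *Gpx3* and *C7*.

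**Figure D2:**
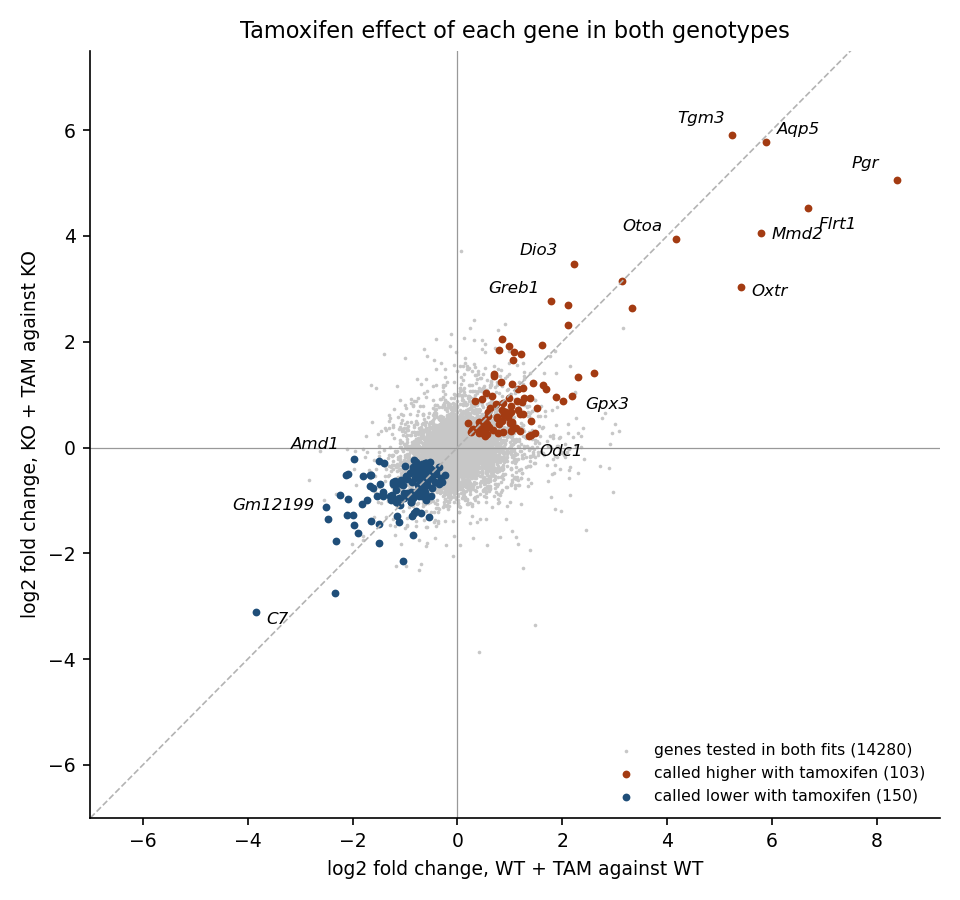
Log2 fold change with tamoxifen in wild type (horizontal) against that in *Mtm1* KO (vertical), each from its own fit, for the 14280 genes tested in both, with genes called in the additive model in color and equal effects on the dashed line. All 253 called genes shown lie in the upper right or the lower left corner, and fitted values of genes with few or no counts in untreated libraries, such as *Pgr*, depend on the prior count and are not bounds.

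The receptors of the drug were not called. *Esr1*, the estrogen receptor alpha, had a mean normalized count of 771 ± 143 (SD, n = 3) in WT and 774 ± 191 (n = 4) in WT + TAM, and of 462 ± 72.4 (n = 3) in *Mtm1* KO and 408 ± 79.2 (n = 4) in *Mtm1* KO + TAM. Normalized counts are read counts scaled to the mean library. *Esr2*, the estrogen receptor beta, was at 0 to 21.8 normalized counts in all libraries, and *Gper1*, a membrane receptor that binds estrogen, at 22.1 to 63.7. Their log2 fold changes were -0.09 ± 0.14 (SE), 1.23 ± 0.65 and -0.02 ± 0.25. Of 10 genes of estrogen and other steroid receptors tested, *Pgr* was the 1 called.

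*Pgr* had next to no counts without the drug and was present in every treated library. It had 0 counts in the 3 WT libraries and 49.6, 46.3, 50.3 and 46.1 normalized counts in the WT + TAM libraries. In *Mtm1* KO it had 0, 0 and 1.8 normalized counts without the drug and 21.5, 24.5, 24.5 and 24.9 with it. Treated and untreated libraries lay far apart in both genotypes, and the treated wild-type libraries all lay above the treated *Mtm1* KO libraries. Against a floor of 3 counts over the WT group, *Pgr* was at least 43.5-fold higher with tamoxifen in wild type, and in *Mtm1* KO 39.3-fold higher (95% counting interval 10.6 to 329, from 2 against 110 counts). The adjusted p of the additive model was 2.54e-05, equal to that of *Flrt1*, and no other gene had a lower one.

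The predicted coding gene *Gm16485* followed *Pgr*. It lies on chromosome 9 from 8971791 to 8975773 on the plus strand (GRCm38), downstream of *Pgr* (8899833 to 8968611, same strand), with 3180 bases between them. It had 0 counts in all 6 untreated libraries, 12.1, 10.2, 14.4 and 7.1 normalized counts in WT + TAM and 6.6, 4.2, 4.7 and 14.8 in *Mtm1* KO + TAM. With 71 counts in the treated libraries in all, it was at least 17.8-fold higher (adjusted p = 0.00488). Whether its reads came from transcripts that run on from *Pgr* was not tested.

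Of 24 tested genes on a list of classic estrogen receptor targets, 5 rose and 1 fell (25% called, against 1.72% of all genes), with a median of 0.18 on the log2 scale against 0.0024 over all genes. This list and all other lists here were chosen with earlier results of these data known. The shares called on them therefore describe the list members and test no enrichment. *Oxtr*, the oxytocin receptor, had 6.2, 1.2 and 6.6 normalized counts in WT, 166, 239.6, 239 and 189 in WT + TAM, 26.7, 7.4 and 9 in *Mtm1* KO and 109.6, 64.1, 56 and 246 in *Mtm1* KO + TAM. The lowest treated library was above the highest untreated one in each genotype. It rose by 3.98 ± 0.50 (SE) on the log2 scale, or 15.8-fold (adjusted p = 7.8e-04). *Greb1*, a coactivator of the estrogen receptor and itself an early target of it, had 1, 8.3 and 6.6 normalized counts in WT against 16.9, 18.1, 10.8 and 27.2 with tamoxifen, and 4.6, 7.4 and 4.5 in *Mtm1* KO against 40.3, 32.1, 44.2 and 36.9. Its groups did not overlap either, and it rose 5-fold (log2 2.32 ± 0.38, adjusted p = 0.00499). *Greb1* and *Oxtr* were called without any single library, and *Greb1* missed the threshold in limma on RPKM (adjusted p = 0.0578).

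The other called targets were expressed in all groups and moved less. *Xbp1*, a transcription factor of the unfolded protein response, rose from 1882 ± 258 (SD, n = 3) to 3286 ± 341 (n = 4) in wild type and from 2017 ± 231 (n = 3) to 2874 ± 420 (n = 4) in *Mtm1* KO (log2 0.66 ± 0.10, adjusted p = 0.00352), with no overlap in either genotype. *Nrip1*, a corepressor that binds liganded nuclear receptors, rose by 0.95 ± 0.23 (adjusted p = 0.0472), and *Igf1*, a muscle growth factor, fell by 0.61 ± 0.15 (adjusted p = 0.0472). Both calls were close to the threshold, and *Nrip1* lost its call when 12 of the 14 libraries, and *Igf1* when 11 of the 14, were left out one at a time (adjusted p up to 0.121 and 0.126). *Nrip1* was the 1 gene called of 12 tested estrogen receptor cofactors, and the coactivators *Ncoa1*, *Ncoa2* and *Ncoa3* and the corepressor *Ncor1* were not called. The 18 other targets tested, *Ctsd*, *Igfbp4*, *Cxcl12*, *Ccnd1*, *Myc* and *Bcl2* among them, did not pass.

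**Figure D3:**
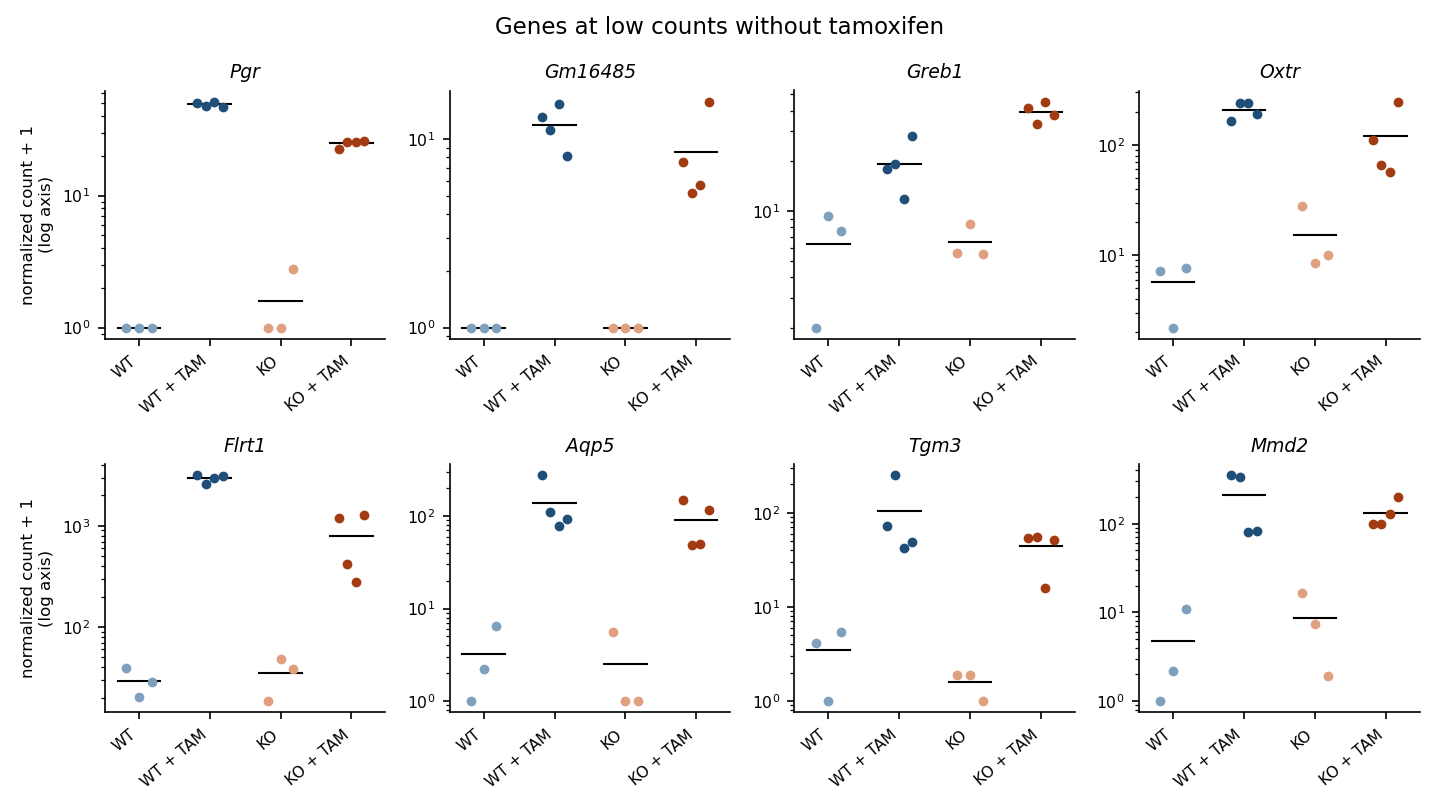
Normalized count + 1 of each library (log axis) for 8 genes that were at low counts without tamoxifen, by group, with a horizontal line at the group mean. In each panel every treated library lies above every untreated library of its genotype.

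The stretches before the start sites of 4 of these genes are printed to show what their promoters hold, since *Pgr*, *Oxtr* and *Greb1* are known targets and *Tgm3* rose strongly too. They are the 250 bases upstream of the RefSeq start (GRCm38.p6), read 5′ to 3′ along the gene. Their positions are chr9:8899583-8899832 for *Pgr* (plus strand), chr6:112489826-112490075 for *Oxtr* (minus strand), chr12:16800887-16801136 for *Greb1* (minus strand, the start of 2 listed that holds a match) and chr2:130012090-130012339 for *Tgm3* (plus strand). Capitals mark AGGTCA, the core that nuclear receptors such as the estrogen receptors bind, searched on both strands, so that TGACCT is the same element on the opposite strand.
Pgr: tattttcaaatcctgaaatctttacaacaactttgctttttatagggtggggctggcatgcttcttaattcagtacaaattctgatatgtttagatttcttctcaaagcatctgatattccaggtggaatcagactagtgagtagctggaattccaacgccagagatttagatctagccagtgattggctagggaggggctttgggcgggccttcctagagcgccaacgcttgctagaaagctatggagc
Oxtr: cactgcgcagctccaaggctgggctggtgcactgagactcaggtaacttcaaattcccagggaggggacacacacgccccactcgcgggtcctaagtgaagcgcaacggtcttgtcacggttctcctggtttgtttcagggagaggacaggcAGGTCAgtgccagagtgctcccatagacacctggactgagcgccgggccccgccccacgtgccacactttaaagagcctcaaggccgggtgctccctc
Greb1: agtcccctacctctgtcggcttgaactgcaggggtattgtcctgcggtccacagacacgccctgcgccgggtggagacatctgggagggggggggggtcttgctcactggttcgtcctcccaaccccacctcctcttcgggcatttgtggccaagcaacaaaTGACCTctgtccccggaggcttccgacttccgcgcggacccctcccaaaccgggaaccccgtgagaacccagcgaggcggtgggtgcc
Tgm3: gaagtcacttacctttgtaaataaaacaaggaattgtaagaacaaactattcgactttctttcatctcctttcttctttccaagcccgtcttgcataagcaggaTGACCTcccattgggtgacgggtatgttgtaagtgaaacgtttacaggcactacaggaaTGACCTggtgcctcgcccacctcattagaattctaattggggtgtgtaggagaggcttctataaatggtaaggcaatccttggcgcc

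The core stood 98 bases before the start in *Oxtr* (its first base), 88 bases in *Greb1* and 146 and 87 bases in *Tgm3*, and these letters were not in the *Pgr* stretch. A match is common, since 1659 of the 10870 tested genes with a promoter in the table (15.3%) held AGGTCA between 250 bases before and 50 bases after a start. The full palindromic estrogen response element was in 2 of the 10870 (0.0184%), and in 0 of the matched promoters of called genes. Promoters were matched for 78 of the 108 genes called higher and 104 of the 159 called lower, under 80% of each, so a comparison of their shares with the background is void.

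Genes outside these lists rose from low counts by more than *Greb1*. *Flrt1*, a membrane protein of the FLRT family that binds latrophilin and FGF receptors, had 38.4, 19.1 and 27.4 normalized counts in WT and 3163, 2600.1, 3002 and 3087 in WT + TAM. In *Mtm1* KO it had 17.5, 47 and 37.6 without and 1199, 419, 278 and 1269 with tamoxifen. The 4 treated wild-type libraries were alike and all above the treated *Mtm1* KO libraries, which spread over a wider range. *Flrt1* rose 47.7-fold in the additive model (log2 5.58 ± 0.48, adjusted p = 2.54e-05, from 5.34 to 5.92 with libraries left out).

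*Aqp5*, a water channel of secretory epithelia, had 0, 1.2 and 5.5 normalized counts in WT against 276, 111, 77.8 and 92.2 with tamoxifen, and 4.6, 0 and 0 in *Mtm1* KO against 149.8, 48.1, 48.9 and 114. It was at or near 0 in untreated muscle of both genotypes and rose to overlapping ranges in both (57.3-fold, log2 5.84 ± 0.62, adjusted p = 2.84e-04). *Tgm3*, a transglutaminase that crosslinks structural proteins of hair and epidermis, had 3.1, 0 and 4.4 against 71.4, 248.6, 40.7 and 47.3 in wild type and 0.9, 0.9 and 0 against 53.4, 54, 15 and 50.8 in *Mtm1* KO. It was 69.7-fold higher in *Mtm1* KO (95% counting interval 19 to 579, from 2 against 195 counts), with an adjusted p of 5.19e-04 in the additive model and of 0.0561 in limma on RPKM. *Mmd2*, a progestin and adipoQ receptor family member, had 0, 1.2 and 9.9 against 351, 332, 79 and 82.8 in wild type and 15.6, 6.4 and 0.9 against 97.4, 97.9, 126 and 197 in *Mtm1* KO. Its treated wild-type libraries formed a high and a low pair, and the low pair was still above all untreated libraries (27.7-fold, log2 4.79 ± 0.61, adjusted p = 7.8e-04).

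*Otoa*, which encodes the inner ear protein otoancorin, rose from 4.56 ± 5.31 (SD, n = 3) to 88.2 ± 26.2 (n = 4) in wild type and from 0.912 ± 0.920 to 15.6 ± 8.95 in *Mtm1* KO. That is 17.4-fold (95% counting interval 5.72 to 86.3) in *Mtm1* KO, where the untreated libraries held 3 counts in all. *Pthlh*, the parathyroid hormone related protein, rose 4.66-fold, from 36.4 ± 27.3 to 159 ± 70.2 in wild type and from 31.7 ± 19 to 159 ± 64.3 in *Mtm1* KO (log2 2.22 ± 0.36, adjusted p = 0.00462), to the same mean in both. *Gm6484*, named *Angptl8* in GENCODE and known as a liver and fat hormone of lipid handling, rose 7.72-fold (log2 2.95 ± 0.59, adjusted p = 0.0179). *BC005764* (*Plppr3*) rose by 2.41 ± 0.45 and *Efhc2* by 2.02 ± 0.40, and *Efhc2* lost its call without WT replicate 2 (adjusted p = 0.0527). Outside the rule that picked the genes above, *Hs3st4*, a heparan sulfate sulfotransferase, went from 3 counts in the 6 untreated libraries to 97 in the treated ones (24.3-fold, 95% counting interval 8.06 to 120), and *Gria1*, a glutamate receptor subunit, reached 95.5, 111, 49.7 and 42.4 normalized counts in *Mtm1* KO + TAM against 8.5, 5.7, 3.6 and 1.2 in WT + TAM. The WT and WT + TAM libraries overlapped for *Gria1*. In limma on RPKM *Gria1*, *Hs3st4* and *Gm16485* missed the threshold (adjusted p = 0.132, 0.0538 and 0.0577). *Gria1* and *Hs3st4* were chosen after their values were seen.

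Among genes already expressed in untreated muscle, the antioxidant enzyme *Gpx3* and the gluconeogenic enzyme *Fbp2* rose most. *Gpx3*, a secreted glutathione peroxidase, had 3907, 2465 and 3231 normalized counts in WT and 17859, 14828, 13115 and 12889 in WT + TAM. In *Mtm1* KO it went from 4823, 3672 and 4259.7 to 9459, 7211, 9439 and 7498. No treated library overlapped an untreated one (2.97-fold, log2 1.57 ± 0.20, adjusted p = 7.94e-04), and the rise was larger in wild type (2.19) than in *Mtm1* KO (0.97), with an unadjusted interaction p of 1.4e-04 that did not pass the adjustment over all genes. Of 31 tested genes of oxidative and xenobiotic defence 2 were called (6.45%, against 1.72% of all genes). *Gpx3* was the 1 called higher and *Abcb1a*, a drug efflux pump, the 1 called lower (by 0.61 ± 0.12, adjusted p = 0.0125). *Nfe2l2*, which encodes the antioxidant regulator NRF2 and was chosen after its values were seen, rose by 0.46 ± 0.10 (adjusted p = 0.0257), and lost this call without WT replicate 2, WT replicate 4, WT + TAM replicate 5 or *Mtm1* KO + TAM replicate 15 (adjusted p up to 0.0689). The defence genes *Nqo1* (0.08), *Hmox1* (0.004), *Gclc* (0.10), *Gclm* (0.10), *Txnrd1* (0.16) and *Srxn1* (0.23) were not called (log2 fold changes in brackets).

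*Fbp2*, the muscle form of fructose-1,6-bisphosphatase, had 833, 1036 and 1130.0 normalized counts in WT, 6479.6, 3927, 4742 and 4452 in WT + TAM, 659.8, 566 and 1149 in *Mtm1* KO and 2938, 1434, 1559 and 2144 in *Mtm1* KO + TAM. The groups were separate in both genotypes (3.51-fold, log2 1.81 ± 0.23, adjusted p = 7.8e-04), and *Fbp2* was the 1 gene called of 25 in glycolysis and glycogen metabolism. *Xbp1* and *Herpud1*, of the endoplasmic reticulum stress response, were the 2 called of 27 genes on that list (7.41%, against 1.72% of all genes). *Herpud1* rose by 0.40 ± 0.08 (adjusted p = 0.0222), a call lost without WT replicate 2, WT replicate 4 or *Mtm1* KO replicate 9 (adjusted p up to 0.069).

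*Dio3*, the deiodinase that inactivates thyroid hormone, rose 8.03-fold (log2 3.01 ± 0.34, adjusted p = 3.07e-04). Its libraries held 3.1, 3.6 and 4.4 normalized counts in WT and 13.3, 17, 18 and 22.5 in WT + TAM, and 4.6, 7.4 and 9 in *Mtm1* KO and 103, 65.8, 103 and 45.2 in *Mtm1* KO + TAM. It was called without any single library, and reached a higher level in the mutant. Of 13 tested genes of thyroid hormone handling it was the 1 called.

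*Dio3* lies at the end of an imprinted cluster on chromosome 12 (GRCm38, 109452823 to 110281097, plus strand) that begins with *Dlk1* and holds the noncoding RNAs *Meg3*, *Rian* and *Mirg*, which are expressed from the maternal copy and host many small RNAs. All 3 noncoding RNAs rose. *Rian* had 2541, 3896 and 2302 normalized counts in WT and 8965, 4979.9, 8685 and 8806 in WT + TAM, and 2180.0, 3977 and 2237 in *Mtm1* KO and 9913, 6019, 5066 and 5217 in *Mtm1* KO + TAM. The groups did not overlap (2.51-fold, log2 1.33 ± 0.20, adjusted p = 0.00297), although WT + TAM replicate 6 stood apart below the other 3. *Mirg* rose by 1.40 ± 0.30 (adjusted p = 0.0237, lost without WT replicate 2, WT replicate 4 or *Mtm1* KO replicate 9, up to 0.0708). *Meg3* rose by 0.85 ± 0.20 (adjusted p = 0.0457, lost without 10 of the 14 libraries, up to 0.126).

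*Dlk1*, which is expressed from the paternal copy of the cluster, was not called (0.54 ± 0.25, adjusted p = 0.347). Of 19 tested imprinted growth genes 4 were called, all higher (21.1%, against 0.694% of all genes called higher). They were *Rian*, *Mirg*, *Meg3* and the growth factor *Igf2*, which rose by 0.69 ± 0.15 (adjusted p = 0.0256) and lost its call without 6 of the 14 libraries (up to 0.0683). Of the 50-base exon stretches of *Igf2* 62.1% also occur in an overlapping annotated gene, so that its counts may depend on how shared reads were treated. *H19*, *Peg3*, *Mest* and *Cdkn1c* were not called.

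The insulin-like growth factor axis changed in 3 of 20 tested genes (15%, against 1.72% of all genes). *Igfbp5*, the most abundant IGF binding protein of muscle, had 16604, 26177 and 19776 normalized counts in WT and 7499, 13269.7, 11441 and 11439 in WT + TAM. In *Mtm1* KO it had 11555, 16053 and 10789 against 7094, 6328, 8109 and 6463. It was lower with tamoxifen in all treated libraries of both genotypes (1.87-fold, log2 -0.90 ± 0.14, adjusted p = 0.00273). *Igf1* fell and *Igf2* rose, as given above. The receptor *Igf1r* just missed the threshold (0.71 ± 0.17, adjusted p = 0.0503), and *Ghr* was not called.

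*Tfam* and *Peo1*, nuclear genes that maintain mitochondrial DNA, rose, while transcripts counted on 4 genes of that DNA fell. *Tfam*, which packages mitochondrial DNA and activates its transcription, rose from 1320.0 ± 72.3 (SD, n = 3) to 2616 ± 94.2 (n = 4) in wild type and from 1141 ± 176 (n = 3) to 1781 ± 278 (n = 4) in *Mtm1* KO (1.76-fold, log2 0.81 ± 0.10, adjusted p = 7.73e-04). *Peo1* (*Twnk*), the mitochondrial DNA helicase, rose from 825 ± 116 to 1243 ± 88.5 and from 725 ± 76.6 to 1105 ± 144 (1.52-fold, log2 0.60 ± 0.09, adjusted p = 0.00273). Of the 50-base exon stretches of *Peo1* 12.4% also occur in *Mrpl43*. Both genes were chosen after their values were seen, and both were separate in each genotype and called without any single library. Of 31 tested nuclear genes of oxidative phosphorylation 0 were called by edgeR, with 0 at an unadjusted p of at most 0.05, and DESeq2 and limma each called 0.

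Of 15 genes of the mitochondrial genome 4 were called lower (26.7%, against 1.02% of all genes called lower). These were *mt-Nd3* (-0.78 ± 0.15, adjusted p = 0.013), *mt-Co2* (-0.75 ± 0.14, adjusted p = 0.014), *mt-Co3* (-0.91 ± 0.18, adjusted p = 0.0149) and *mt-Atp6* (-0.86 ± 0.17, adjusted p = 0.014), which encode subunits of complexes I, IV and V. Without WT replicate 4 the calls of *mt-Co2* and *mt-Co3* were lost (adjusted p = 0.0544 for both). The 4 genes stood at mean normalized counts of 469.8 to 2516 in WT, against 250700 for *mt-Nd1* and 618600 for *mt-Co1*, whose log2 fold changes of -0.09 and -0.15 did not pass. Of their 50-base stretches 98% to 100% also occur in nuclear pseudogenes, such as *RP23-8J15.2* and *RP23-8J15.4* on chromosome 1, which fell by 0.74 ± 0.13 (adjusted p = 0.00822) and 0.85 ± 0.16 (adjusted p = 0.0129). Reads of these mitochondrial genes and of their nuclear copies cannot be told apart by these counts, and the summed level of the 15 genes overlapped between treated and untreated libraries in both genotypes (51710 to 62680 against 52440 to 79460 CPM in wild type, 33200 to 58650 against 40340 to 52870 CPM in *Mtm1* KO).

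**Figure D4:**
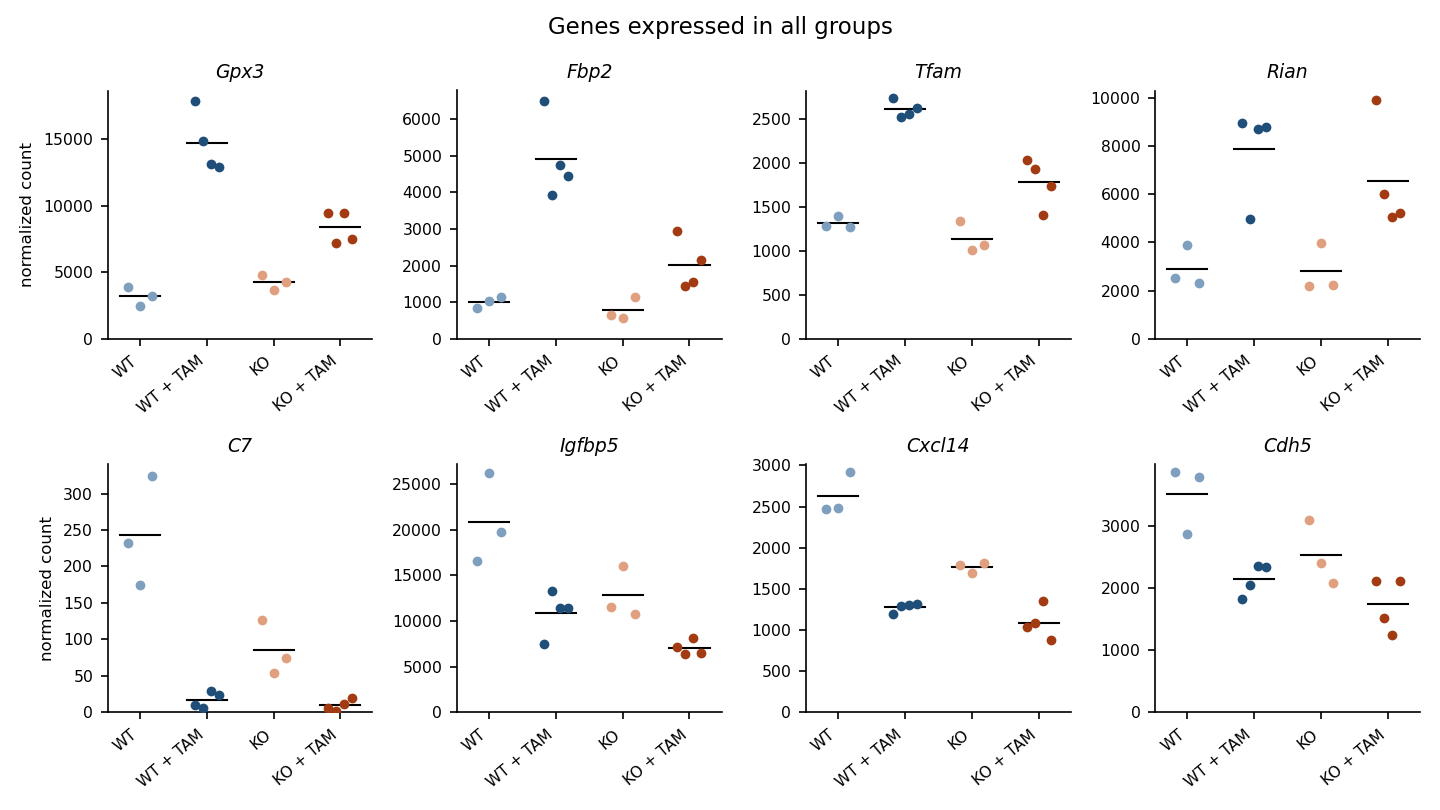
Normalized count of each library for 8 genes expressed in all groups, by group, with a horizontal line at the group mean and axes from 0. *Gpx3*, *Fbp2*, *Tfam* and *Rian* are higher and *C7*, *Igfbp5* and *Cxcl14* lower in every treated library of each genotype, and *Cdh5* overlaps in *Mtm1* KO.

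Smaller rises with no overlap in either genotype were seen in genes of the muscle fiber and of signaling. *Nrap*, a protein of the myotendinous junction and of assembling myofibrils, rose by 0.53 ± 0.08 (adjusted p = 0.00273) to means of 30150 ± 779.6 and 29840 ± 3818 in the treated wild-type and *Mtm1* KO libraries. Its 3′ end overlaps that of *Habp2* on the other strand. *Smyd2*, a lysine methyltransferase of the sarcomere, rose by 0.79 ± 0.14 (adjusted p = 0.00645), and *Setd8* (*Kmt5a*), the histone H4 lysine methyltransferase, by 0.92 ± 0.15 (adjusted p = 0.00591). *Tiparp*, a target of the aryl hydrocarbon receptor and of estrogen receptors in other tissues, rose by 0.78 ± 0.13 (adjusted p = 0.00675), *Il17ra* by 0.97 ± 0.14 (adjusted p = 0.00231) and the eosinophil chemokine *Ccl11* by 0.64 ± 0.11 (adjusted p = 0.00501). These 6 genes were chosen after their values were seen.

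Of 28 genes of denervation and regeneration 4 were called higher (14.3%, against 0.694% of all genes called higher). They were *Igf2* and *Meg3* as above and *Ankrd1* and *Myh8*. *Ankrd1*, a stress-responsive repeat protein of the sarcomere, rose by 1.19 ± 0.22 (adjusted p = 0.0105), from 277 ± 13.5 to 658 ± 189.6 in wild type and from 4856 ± 1819 to 10650 ± 4287 in *Mtm1* KO, so that the mutant level without the drug was above the treated wild-type level. *Myh8*, the perinatal myosin heavy chain and the 1 called of 37 sarcomere genes, rose by 1.10 ± 0.25 (adjusted p = 0.0358, lost without 10 of the 14 libraries, up to 0.104). The acetylcholine receptor subunits *Chrng*, *Chrna1* and *Chrnd* and the regulators *Myog* and *Myod1* were not called. Of 26 triad genes, *Cacna1s*, the voltage sensor of excitation-contraction coupling, was the 1 called (0.50 ± 0.10, adjusted p = 0.0222, lost without WT replicate 2, WT replicate 4 or *Mtm1* KO replicate 10, up to 0.069).

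The gene that fell most among the better expressed was *C7*, a terminal complement component made by stromal cells. It had 232, 175 and 324 normalized counts in WT against 9.7, 5.7, 28.7 and 23.6 in WT + TAM, and 127, 53.4 and 74.3 in *Mtm1* KO against 6.6, 1.7, 11.8 and 19.4 in *Mtm1* KO + TAM. Among the 14 libraries, every treated library was below every untreated one (11.3-fold lower, log2 -3.49 ± 0.39, adjusted p = 2.96e-04). The untreated libraries left out were at the treated level, with 13 *C7* read counts in WT replicate 1 and 9 in *Mtm1* KO replicate 12. The call was kept with all 16 libraries. In bulk muscle, fewer cells of a type and less RNA in each cell cannot be told apart. The summed level of 12 fibroblast markers was 4122 to 4416 CPM in WT and 2989 to 4164 in WT + TAM, and 4089 to 5878 in *Mtm1* KO and 4089 to 4694 in *Mtm1* KO + TAM, and their part in the fall of *C7* was not tested.

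Other stromal and secreted genes fell in both genotypes. *Fbln1*, a basement membrane glycoprotein, was the 1 gene called of the 12 fibroblast markers (-0.73 ± 0.10, adjusted p = 0.00105), and *Pdgfra*, *Ly6a* and *Pi16* were not called. *Cxcl14*, a chemokine of stromal cells, went from 2475, 2484 and 2916 normalized counts to 1199.9, 1296, 1300.0 and 1314 in wild type and from 1788, 1689 and 1811 to 1041, 1082, 1348 and 883 in *Mtm1* KO (log2 -0.87 ± 0.10, adjusted p = 2.96e-04). *Dkk2*, a secreted Wnt antagonist, fell by 1.03 ± 0.15 (adjusted p = 0.00207). *Cxcl14* and *Dkk2* were chosen after their values were seen, and all 3 genes were separate in both genotypes and called without any single library.

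Of 40 genes of collagens and matrix, 2 fell and 1 rose (7.5% called, against 1.72% of all genes), with a median of -0.17 on the log2 scale. *Col6a6*, a collagen VI chain, fell by 1.08 ± 0.15 (adjusted p = 0.00119), from 752 ± 83.6 to 353 ± 76.8 in wild type and from 445 ± 50.7 to 212 ± 62.9 in *Mtm1* KO. Of the untreated libraries left out, WT replicate 1 held 251 *Col6a6* read counts and *Mtm1* KO replicate 12 held 360. *Spon1*, an extracellular spondin, rose by 0.82 ± 0.12 (adjusted p = 0.00273), and the calls of *Col6a6* and *Spon1* held without any single library. *Col15a1*, a basement membrane collagen, fell by 0.60 ± 0.14 (adjusted p = 0.0457, lost without 10 of the 14 libraries, up to 0.127). The fibrillar collagens *Col1a1*, *Col1a2* and *Col3a1* and the other collagen VI chains *Col6a1*, *Col6a2* and *Col6a3* were not called.

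Some endothelial transcripts were lower with the drug. Of 14 endothelial markers 4 were called, all lower (28.6%, against 1.02% of all genes called lower), the median was -0.34, and 13 of the 14 had a negative log2 fold change. *Cdh5*, the junction cadherin of endothelium, had 3862, 2866 and 3789 normalized counts in WT against 1816, 2052, 2358 and 2332 in WT + TAM, and 3091, 2401 and 2082 in *Mtm1* KO against 2104, 1521, 1246 and 2110.5 in *Mtm1* KO + TAM. The groups overlapped in *Mtm1* KO but not in wild type (log2 -0.62 ± 0.13, adjusted p = 0.0237). The tight junction gene *Cldn5* fell by 0.95 ± 0.21 (adjusted p = 0.0307), the receptor *Tie1* by 0.52 ± 0.12 (adjusted p = 0.0295) and the guidance receptor *Robo4* by 0.45 ± 0.11 (adjusted p = 0.0478).

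None of these calls held throughout. *Cdh5* was lost when any of 4 libraries was left out (WT replicate 2, WT replicate 4, WT + TAM replicate 5 or *Mtm1* KO replicate 9), *Cldn5* for 7, *Tie1* for 8 and *Robo4* for 11, with adjusted p up to 0.0711, 0.098, 0.0864 and 0.139. *Ace*, the angiotensin converting enzyme of the endothelial surface, was chosen after its values were seen and did hold, with a fall of 0.60 ± 0.09 (adjusted p = 0.00269) and no overlap in either genotype. *Pecam1*, *Kdr*, *Flt1* and *Vwf* were not called. The summed level of the 14 markers was 569 to 822 CPM in WT and 499 to 592 in WT + TAM, and 520.5 to 675 in *Mtm1* KO and 404 to 586 in *Mtm1* KO + TAM, and the part of endothelial content in these values was not tested.

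*Ighm* and some interferon-related genes were also lower. *Ighm*, the heavy chain of IgM, had 3384, 1932 and 3401 normalized counts in WT against 675, 881, 1052 and 1119.8 in WT + TAM, and 439.9, 785 and 228 in *Mtm1* KO against 174, 152, 143 and 282 in *Mtm1* KO + TAM. The treated libraries lay below the untreated ones in wild type and overlapped them in *Mtm1* KO (2.85-fold lower, log2 -1.51 ± 0.23, adjusted p = 0.00311). It was the 1 called of 20 tested leukocyte markers, and *Ptprc*, *Cd68*, *Csf1r* and *Itgam* were not called. *Cd3d* and *Cd8a*, which mark T cells, had no count in WT, and *Cd8a* none in WT + TAM. The summed level of 26 leukocyte markers was 434 to 552 CPM in WT and 198 to 473 in WT + TAM, and 552 to 941 in *Mtm1* KO and 526 to 767 in *Mtm1* KO + TAM, and its part in the fall of *Ighm* was not tested.

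Of 25 interferon-response genes *Rsad2* was the 1 called (-0.98 ± 0.23, adjusted p = 0.0393, lost without 10 of the 14 libraries, up to 0.117), while 24 had a negative log2 fold change and the median was -0.25. The interferon-inducible GTPase genes *Gm4841* and *Iigp1*, which are near each other in the genome, fell by 1.70 ± 0.29 (adjusted p = 0.00641) and 1.07 ± 0.25 (adjusted p = 0.0389), the latter lost without 10 of the 14 libraries (up to 0.102). *Il18r1*, the interleukin 18 receptor, had 48 counts in WT and 1 in WT + TAM (60-fold lower, 95% counting interval 10.3 to 2420). Its mean normalized counts were 8.23 in *Mtm1* KO and 1.06 in *Mtm1* KO + TAM. The untreated libraries left out, WT replicate 1 and *Mtm1* KO replicate 12, held 1 and 0 counts, so this ratio depends on which untreated libraries were used. *Iigp1* and *Il18r1* were chosen after their values were seen.

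The remaining genes among the 12 with the largest falls had varied roles. *Cited4*, a transcriptional coregulator, fell by 1.54 ± 0.27 (adjusted p = 0.00794), *Adamts17*, a secreted protease, by 1.51 ± 0.31 (adjusted p = 0.0194) and *Amd2*, a copy of the polyamine enzyme gene *Amd1*, by 1.88 ± 0.33 (adjusted p = 0.00794). The noncoding RNAs *RP23-269M3.2*, *Gm12199* and *Gm13490* fell, with log2 fold changes of -2.52 ± 0.38, -2.02 ± 0.31 and -2.05 ± 0.43. *Gm13490* lost its call without 4 of the 14 libraries (WT replicate 3, WT replicate 4, WT + TAM replicate 5 and *Mtm1* KO replicate 10, adjusted p up to 0.0706). *Mchr1*, *Crybb1* and *Pcbd1* had log2 fold changes of -1.66 ± 0.33, -1.46 ± 0.29 and -1.62 ± 0.37, and lost their calls without 2, 1 and 10 libraries (up to 0.058, 0.0511 and 0.0961). For *Mchr1* these were WT replicate 4 and *Mtm1* KO replicate 10, and for *Crybb1* WT replicate 4.

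**Figure D5:**
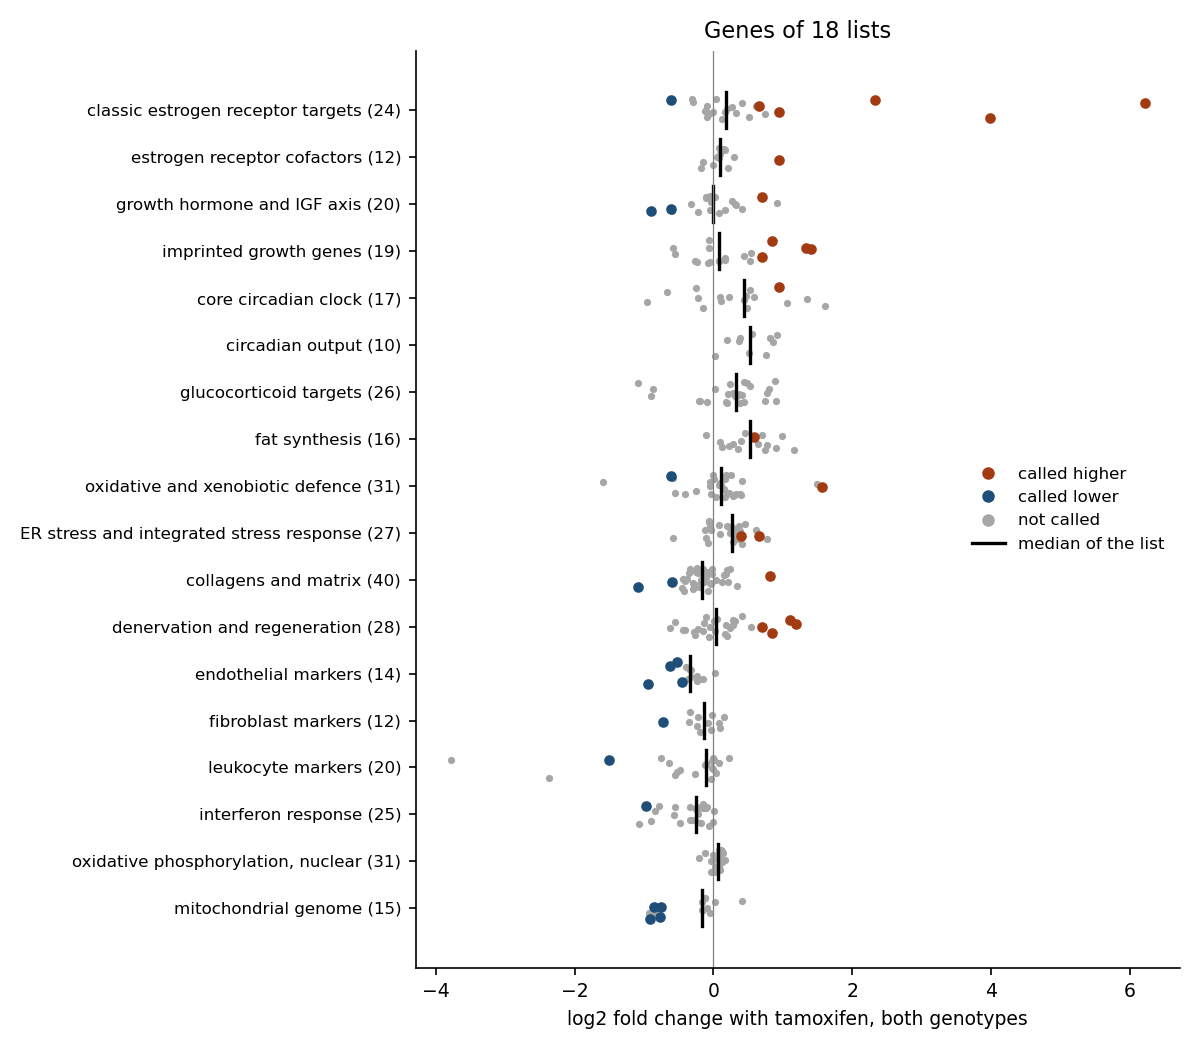
Log2 fold change with tamoxifen in both genotypes (horizontal) for each tested gene of 18 gene lists (rows, number of tested genes in brackets), with called genes in color and a black line at the median of each list. The 5 classic estrogen receptor targets that rose lie to the right of 0, up to *Pgr*, and the 4 called endothelial and 4 called mitochondrial genes to the left.

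Many processes showed no called gene. With edgeR 0 genes were called of 26 glucocorticoid targets, 24 of cholesterol synthesis, 27 of the proteasome, 10 of circadian output, 13 fat cell, 14 myofiber, 8 satellite cell, 9 smooth muscle and pericyte, and 22 proliferation genes, and of 10 genes on a list of possible myopathy modifiers. At an unadjusted p of at most 0.05 these held 8, 2, 1, 5, 1, 0, 0, 3, 2 and 2 genes. DESeq2 called 1 of the glucocorticoid targets, 2 of the circadian output genes and 1 of the smooth muscle and pericyte genes, and limma called 0 on any of these lists. Among the last, *Dnm2* changed by -0.07 ± 0.06 (adjusted p = 0.687) and *Pik3c2b* by -0.13 ± 0.16 (adjusted p = 0.775). The group means of *Dnm2* were 1248 ± 49.4 in WT, 1212 ± 70.1 in WT + TAM, 1468 ± 78.1 in *Mtm1* KO and 1376 ± 48.5 in *Mtm1* KO + TAM. All 27 proteasome genes had a positive log2 fold change, with a median of 0.11. Glucocorticoid targets had medians of 0.79 in wild type and -0.08 in *Mtm1* KO. Summed proliferation markers were at 628 to 1919 CPM in WT and 1256 to 1895 in WT + TAM. In *Mtm1* KO they were at 241 to 462 without and 642 to 938 with tamoxifen. In the additive model over both genotypes 14 of the 22 proliferation genes had a negative log2 fold change, and their medians were -0.28 in wild type and 0.08 in *Mtm1* KO.

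The circadian genes had medians of 0.44 (17 core genes) and 0.53 (10 output genes), and 12 of 17 and 10 of 10 had a positive log2 fold change. *Per2* (1.61), *Per3* (1.05) and *Ciart* (1.35) did not pass, with adjusted p of 0.063, 0.122 and 0.074, and the time of day of dissection is not given in the sources used here. Fat synthesis had a median of 0.52 in the additive model, which was 1.02 in wild type and -0.01 in *Mtm1* KO. The 1 called of its 16 genes was *Srebf1* (0.58 ± 0.13, adjusted p = 0.0377, lost without 11 of the 14 libraries, up to 0.108), which was also the 1 called of 11 LXR targets. *Srebf1* had log2 fold changes of 0.87 in wild type and 0.29 in *Mtm1* KO, where its groups overlapped. The 13 fat cell markers had medians of 0.79 in wild type and -0.17 in *Mtm1* KO, and their summed level was 1076 to 5029 CPM in WT and 3977 to 7895 in WT + TAM, and 2763 to 4113 in *Mtm1* KO and 2856 to 3977 in *Mtm1* KO + TAM. The part of fat cell content in these values was not tested. *Cpt1a*, which brings fatty acids into mitochondria, was the 1 called of 28 PPAR targets (-0.38 ± 0.09, adjusted p = 0.0469, lost without 12, up to 0.116).

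*Eif4ebp1*, a repressor of translation, was the 1 called of 26 genes of fasting and atrophy (0.78 ± 0.16, adjusted p = 0.0237), and *Ctgf* (*Ccn2*), a matricellular growth factor, the 1 called of 25 immediate early genes (0.72 ± 0.15, adjusted p = 0.0222). *Eif4ebp1* lost its call without WT replicate 2, WT replicate 4, *Mtm1* KO replicate 10 or *Mtm1* KO + TAM replicate 15 (up to 0.0683) and *Ctgf* without WT replicate 2 or WT replicate 4 (up to 0.0725). The atrophy ligase *Trim63* was not called. Over all 40 lists, 38 of the 676 tested genes were called, 21 higher and 17 lower, against 267 of 15556 (1.72%) over all genes.

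The effect was larger in wild type than in *Mtm1* KO for 172 of the 253 called genes that could be tested within each genotype. The share over all genes was not computed, and the genes were called on these same libraries. The count thus describes the called genes and shows no difference between genotypes. An unadjusted interaction p of at most 0.05 was found for 41 of the 267 called genes, against 665 of all 15556 genes (4.27%). *Amd1*, *Odc1* and *Exoc3l4* had the lowest interaction p of the called genes (2.9e-05, 6.2e-05 and 9.7e-05, unadjusted), and none passed the adjustment over all genes. *Odc1*, the first enzyme of polyamine synthesis, had 3535, 4355 and 3251 normalized counts in WT and 9014, 8679, 10909 and 10499 in WT + TAM, but 4138, 4630.2 and 5727 in *Mtm1* KO and 5544, 4789, 6529.8 and 6107 in *Mtm1* KO + TAM. Its groups were separate in wild type and overlapped in *Mtm1* KO. *Amd1*, another enzyme of the pathway, went from 8349, 14192 and 13271 to 2563, 3565, 2949.6 and 3035 in wild type and from 1558, 1802 and 1962 to 1389.8, 1184, 1338 and 2230.5 in *Mtm1* KO. The untreated mutant was thus below the treated wild type for *Amd1*.

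*Smox*, the spermine oxidase of the same pathway, had log2 fold changes of -1.41 in wild type and -0.29 in *Mtm1* KO, and its adjusted p for the shared effect was 0.0257. It was chosen after its values were seen, and *Amd1*, *Odc1* and *Smox* lost their shared calls without 10, 8 and 5 of the 14 libraries (adjusted p up to 0.0995, 0.106 and 0.0683). Of the 50-base exon stretches of *Amd1* 78.1% recur elsewhere, mainly in *Amd2*, and of those of *Odc1* 24.3%, mainly in *Gm7993*. *Exoc3l4*, an exocyst-like protein, had log2 fold changes of -2.12 in wild type and -0.53 in *Mtm1* KO, with no overlap in either. In the other direction *Wisp2* (*Ccn5*), an estrogen-responsive matricellular gene, was at 101 to 159 normalized counts in WT and 94.9 to 135 in WT + TAM, and at 58.2 to 98.5 in *Mtm1* KO and 136 to 327 in *Mtm1* KO + TAM. Its shared effect was not called (adjusted p = 0.395), and its unadjusted interaction p was 2.0e-04.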

How the data were processed

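RNA from 16 quadriceps samples was sequenced, and 14 were used here. The authors deposited whole-number read counts for 41388 genes, which per the study's methods came from STAR alignment to GRCm38 and HTSeq. The authors also deposited RPKM values per gene for the same libraries. Tools in the submitters' processing notes were bcl2fastq 2.17, STAR 2.5.0c and Cufflinks 2.2.1. The annotation, the treatment of strand and shared reads in counting, and the gene lengths behind RPKM were not stated in the sources available to this work, which bears on overlapping genes and near-identical copies. No pair among the 120 pairs of libraries held identical values.

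Counts were tested with the quasi-likelihood F test of edgeR 4.0.16 in R 4.3.3 (TMM scaling, genes with at least 10 counts by filterByExpr over the 4 groups and at least 15 in all), with a model of genotype plus treatment. P-values were adjusted by Benjamini-Hochberg over all genes tested, and a gene is said to be called where its adjusted p did not exceed 0.05. The SE was derived from the log2 fold change and its F statistic. Normalized counts are counts divided by the TMM-scaled library size and multiplied by the mean of that size over the 14 libraries. The same test was run within each genotype and for the interaction. Single values per library were compared by an exact permutation test within genotypes (1225 arrangements, two-sided). Where a group held 3 counts or fewer, ratios were computed from summed counts, with a floor of 3 counts over the group when it held 0 and 95% intervals otherwise, which cover counting error only. The test was tried on simulated counts with known changes.

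The members and lists were chosen with earlier results of these data known. Named were called genes with a mean normalized count of at least 50 in a group and the same sign in both genotypes, the 12 with the largest rise and the 12 with the largest fall. Also named were called list members, the receptors, *Mtm1*, *Greb1*, *Dnm2* and *Pik3c2b*, the 3 called genes with the lowest interaction p, and genes among the 30 with the lowest p in both genotypes. Genes said to be chosen after their values were seen fall outside this rule. Positions were matched by gene ID to GENCODE vM21 (40254 of 41388 IDs) on GRCm38, and shared sequence is the percentage of 50-base exon stretches that also occur in another gene's exons. Alternatives were DESeq2 1.42.0, limma 3.58.1 on log2(RPKM + 1) and log2(RPKM + 0.1), other scalings, filters, thresholds and models, and each library left out. Results for a few genes are not reported here.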

Additional observations from a re-analysis of the deposited data

Results flagged for a closer look

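In 13 of 236 pairs of a named gene and a treated group of 4 libraries, 1 library stood apart from the other 3 by more than the 95% critical value of Dixon's gap test, where chance alone flags about 1 in 20 groups. WT + TAM replicate 5 was that library 5 times. It was low for *Abcb1a* (166.9 normalized counts, others 241.2 or more), *Crybb1* (25.4, others 42.6 to 43.1) and *Cxcl14* (1200, others 1296 to 1314), and high for *Aqp5* (275.8, others 77.8 to 110.7) and *Ctgf* (4013, others 2316 to 2490.5). Without this library *Abcb1a*, *Crybb1*, *Cxcl14*, *Aqp5* and *Ctgf* were still called.

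WT + TAM replicate 6 was low for *Rian* (4980, others 8685 to 8965) and high for *Tgm3* (248.6, others 40.7 to 71.4). WT + TAM replicate 7 was high for *Spon1* (642.8, others 564.0 to 574.5). WT + TAM replicate 8 was high for the mitochondrial pseudogene *Gm13341* (1335, others 1057 to 1104) and for *Il18r1* (1.2, from 1 count, the others at 0). Among the *Mtm1* KO + TAM libraries, replicate 13 was low for *Pgr* (21.5, others 24.5 to 24.9), and replicate 15 was low for *Tgm3* (15, others 50.8 to 54.0) and *Sparcl1* (4568, others 6079 to 6373). In the edgeR test of a difference between genotypes 0 genes passed (DESeq2 called 22), and no cause was tested for any of these.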

How the results depend on the processing

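For the shared effect, edgeR called 74 genes with 0.01 as the threshold and 71 without a genotype term. DESeq2 called 606, all 267 among them. With each library left out in turn the count ran from 121 to 311. The other settings (scaling, filters, limma, robust fit, added libraries, 4-group model) gave 225 to 308 genes. Scaling by library size alone gave 33.3% of calls higher against 40.4%. In wild type, with 80 genes called, there were 19 at an adjusted p of at most 0.01, 185 without a filter, 334 with DESeq2 and 30 to 65 with a library left out. In *Mtm1* KO, with 0 called, there were 7 when scaled by library size alone, 80 without a filter, 160 with DESeq2 and 0 to 12 with a library left out. For the interaction, with 0 called, there was 1 without a filter, 22 with DESeq2 and 0 to 1 with a library left out. The cause of these shifts was not tested. Of 2117 alternative values of named genes, 1765 kept direction and call, 352 lost the call and 0 reversed. Per the study's text the sequenced samples came from littermates, but the litter of each mouse is not given in the sources used here. The replicate numbers are not shared between groups either, so no paired analysis was possible, and the tests treated the mice as independent. In limma on log2(RPKM + 1), the calls of *Nrip1*, *Igf1*, *Meg3*, *Myh8*, *Mchr1*, *Rsad2*, *Iigp1*, *Nfe2l2*, *Srebf1*, *Cpt1a* and *Eif4ebp1* were lost too. Low counts limit *Gm16485*, *Hs3st4* and *Gria1*.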

Other observations

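Some called genes were neighbors in the genome. Among 15412 pairs of neighboring tested genes, 21 had both genes called (0.136%), and 20 of these moved in the same direction, *Fam169b* and *Arrdc4* being the exception. Besides *Pgr* with *Gm16485* and the run of *Rian*, *Mirg* and *Dio3*, the noncoding RNA *RP23-269M3.2* and *Fam124b*, 6633 bases apart on chromosome 1, fell by 2.52 and 2.31 on the log2 scale. The transcription factor gene *Foxo6* and its antisense RNA *Foxo6os*, 4001 bases apart on chromosome 4, fell by 0.91 and 0.93. *Vasp*, an actin regulator, and *Ppm1n*, a phosphatase, 4988 bases apart on chromosome 7, fell by 0.67 and 1.96. *Mid1ip1*, a regulator of fat synthesis, and *Gm14493* overlap on the X chromosome, where counts without strand cannot tell them apart, and rose by 1.11 and 1.76. The other pairs included 3 adjacent mitochondrial pseudogene pairs on chromosome 1 and 2 on chromosome 2, where copies of one sequence share reads. *Foxo6os* was called without any single library, *Fam124b* in 12, *Mid1ip1* in 5, *Foxo6* and *Gm14493* in 4, and *Vasp* and *Ppm1n* in 2 of the 14 sets with a library left out. All of these pairs were found after the values were seen.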
